A study of Mus musculus with 3 samples.

Results

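The miR-106a-363 cluster is a group of 6 microRNA hairpins on the mouse X chromosome, and the levels of its mature miRNAs were followed here in mouse embryonic stem (ES) cells. The members were every listed arm of miR-106a, miR-18b, miR-20b and miR-363, with miR-19b-2-5p and miR-92a-2-5p where listed. Of the 10 arms looked for, 9 were among the 693 listed miRNAs, and miR-19b-2-5p was not. The other arms of the miR-19b and miR-92a hairpins, miR-19b-3p and miR-92a-3p, have the same mature sequence on chromosomes X and 14, so they could not be assigned to a cluster and were not counted as members.

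Small RNA of TAG1 cells was sequenced in 3 libraries, 1 per condition. TAG1 is a mouse ES cell line in which doxycycline (Dox) turns on Alk4*, a type I Activin/Nodal receptor that signals without ligand. The cells of the Control library received neither compound. The cells of the SB library were kept for 16 hrs with 30 µM of SB-431542, a kinase inhibitor of the receptors that phosphorylate Smad2/3 (the labels write SB-431541), and those of the Dox library had the same SB treatment followed by 12 hrs of Dox at 1 µg/µl. By the methods of the study, control cells were grown in medium with fetal bovine serum and treated cells in medium with knockout serum replacement, so medium and treatment cannot be told apart in any comparison with Control. All cells came from 1 engineered line. There were no replicates, so every interval given is a 95% interval for counting error alone, and the reads carried no molecular identifiers.

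A miRNA hairpin is cut out of a long primary transcript by Drosha and then trimmed by Dicer to a short duplex. One strand of the duplex, the guide, is kept by an Argonaute protein and pairs with messenger RNAs mainly through its seed, bases 2 to 8, while the other strand is usually degraded. The miR-106a-363 cluster is a paralogue of the better known miR-17~92 and miR-106b~25 clusters, whose guide strands share seeds with it. These miRNAs are active in pluripotent cells, where they repress inhibitors of the cell cycle, and members of the miR-17 seed family also repress the gene of the type II TGF-β receptor, Tgfbr2.

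The mature sequences of 8 members were found in the RefSeq records for GRCm38 and are shown to make the shared seeds visible. They are written 5′ to 3′ with the seed in capitals.
miR-106a-5p: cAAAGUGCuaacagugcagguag
miR-20b-5p: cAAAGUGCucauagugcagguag
miR-18b-5p: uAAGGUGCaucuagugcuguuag
miR-363-3p: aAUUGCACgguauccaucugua
miR-106a-3p: aCUGCAGUgccagcacuucuuac
miR-20b-3p: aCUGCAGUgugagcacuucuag
miR-18b-3p: uACUGCCCuaaaugccccuucu
miR-92a-2-5p: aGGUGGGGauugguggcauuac
The guide strands of miR-106a and miR-20b shared the seed AAAGUGC and differed at 2 of 23 positions. Their opposite arms shared the seed CUGCAGU. miR-92a-2-5p and miR-18b-3p each stood alone in their seed among the listed miRNAs with a sequence. miR-92a-2-5p had the highest GC content of the members, 54.5%, with 10 G among 22 bases. The GC content of the other members with a sequence lay between 40.9% for miR-363-3p and 52.2% for miR-106a-3p.

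The 6 hairpins lay within 875 bases at chrX:52741693-52742567 on the minus strand of GRCm38, in the order miR-106a, miR-18b, miR-20b, miR-19b-2, miR-92a-2 and miR-363 along the transcript. The gaps between neighbours ran from 46 to 138 bases. GENCODE M21 placed a gene of type miRNA at each of them. Mir106a alone shared bases, 5 in all, with the long noncoding transcript Kis2, and overlap with other genes was not checked. The sequences of the hairpins that gave the most reads and the largest ratios are given here with the annotated mature arms in capitals, of which RefSeq gave only the 3p arm for Mir363.
Mir92-2: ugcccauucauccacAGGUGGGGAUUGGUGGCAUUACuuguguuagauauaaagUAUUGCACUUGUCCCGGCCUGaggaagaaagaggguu
Mir363: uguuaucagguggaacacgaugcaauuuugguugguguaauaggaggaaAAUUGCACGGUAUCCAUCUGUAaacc
Mir92-2 took up chrX:52741838-52741928 and Mir363 chrX:52741693-52741767. The letters CAGAC, the Smad-bound motif described in some hairpins, were searched on both strands (GTCTG on the other) and were found in 0 of the 6 hairpins and in 205 of 1005 RefSeq hairpins (20.4%).

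Levels were the authors' rpm, the reads of a miRNA divided by a total of the library and brought to a common scale. The totals by which the values were divided, recovered from the values, lay between 9895513 and 11354692. They were smaller than the numbers of sequenced reads stated for these libraries, so which reads they count is not known, and the cause of the gap was not tested. The reads on listed miRNAs came to 24.1% of that total in SB, 28.3% in Control and 33.4% in Dox, and these shares enter every level. The ES cell miRNAs fixed as markers, from the miR-290~295 and miR-302~367 clusters, were listed for 12 of 12, and their summed level was 70828 rpm in Control, 56438 in SB and 78506 in Dox, so the markers of the labelled cell type were present in each library. Single markers did not all follow this sum: in SB over Control 1 was called lower (30.2% of all listed were) and 4 higher (15.3%), with a median log2 ratio of 0.20, and in Dox over SB 7 were lower (17.9%) and 3 higher (41.7%), with a median of -0.43. The 12 fibroblast markers, all listed, summed to 2865 rpm in Control, 6124 in SB and 3317 in Dox. In SB over Control 11 of these 12 were called higher (15.3% of all listed), and in Dox over SB 10 were called lower (17.9%), with a lowest value of 1 read in the Dox library. In Dox over Control 6 were lower (19.8% of all listed) and 2 higher (30.6%), with a median log2 ratio of -0.53, while the sum in Dox was mostly miR-21-5p at 2041 rpm. The part of this shift in the values below was not tested.

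Together the 9 members made up 3343 rpm in Control, 1828 rpm in SB and 3230 rpm in Dox, which is 1.18%, 0.758% and 0.968% of the reads on listed miRNAs. The cluster was lowest in the SB library, under each of the 5 scalings described further on. Fewer cells of a type and less RNA per cell cannot be told apart in such totals. Most of this sum was a single arm, since miR-363-5p held 66.8%, 67.0% and 62.3% of the cluster's reads. The log2 ratio of the summed level was -0.87 (-0.90 to -0.85) for SB over Control, 0.82 (0.80 to 0.85) for Dox over SB, where the other scalings gave 0.35 to 0.44, and -0.05 (-0.07 to -0.03) for Dox over Control, where they gave -0.33 to -0.23. Without miR-363-5p and miR-92a-2-5p the same log2 ratios were -0.47, 0.05 and -0.42 with the authors' rpm. The remaining 7 members summed to 724 rpm in Control, 522 in SB and 540 in Dox, most of it miR-363-3p (458, 282 and 325 rpm). This remainder was not summed under the other scalings, which moved the median Dox over SB log2 ratio of all listed miRNAs by -0.47 to -0.31.

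**Figure D1:**
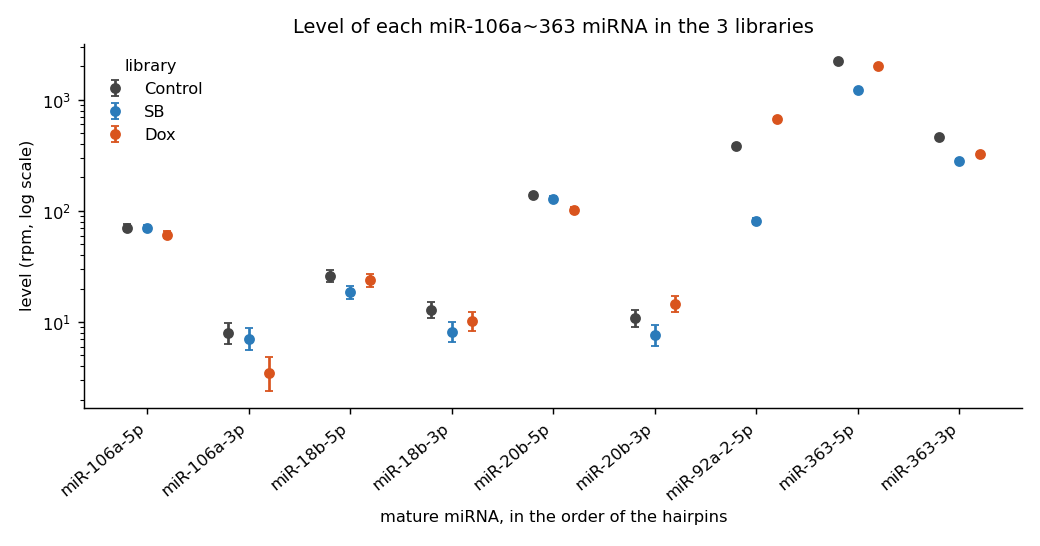
Level in rpm (log axis) of each of the 9 members in the Control, SB and Dox libraries, 1 library each, with 95% Poisson intervals for counting error. miR-92a-2-5p lay at 80.6 rpm in SB against 386 in Control and 677 in Dox, and miR-363-5p was the most abundant member in all 3 libraries.

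The miR-363 hairpin, at the 3′ end of the cluster, gave the 2 most abundant members in Control and in SB, and miR-363-5p led in Dox as well. miR-363-5p measured 2233 rpm in Control, 1225 rpm in SB and 2013 rpm in Dox, which placed it 27th, 41st and 37th among the listed miRNAs. It was thus lowest in SB, and the log2 ratio was -0.87 (-0.90 to -0.84) for SB over Control and 0.72 (0.69 to 0.75) for Dox over SB, where the call held under 3 of the 5 scalings. In Dox over Control the log2 ratio was -0.15 (-0.18 to -0.12), a difference larger than counting error but smaller than the 25% required here for a call. Under the 4 other scalings it was called lower, at -0.54 to -0.33. Its opposite arm miR-363-3p, which carries the miR-92 family seed AUUGCAC, measured 458 rpm in Control, 282 in SB and 325 in Dox. This arm fell in SB over Control, at a log2 ratio of -0.70 (-0.77 to -0.64), and lay lower in Dox than in Control as well, at -0.50 (-0.56 to -0.43). Its Dox over SB log2 ratio of 0.21 (0.13 to 0.28) was not called and was below 0 under the 4 other scalings.

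miR-92a-2-5p, the arm opposite the guide miR-92a-3p, had the largest ratios of the members in SB over Control and in Dox over SB. The ratio of miR-106a-3p was the larger in size in Dox over Control. miR-92a-2-5p measured 386 rpm (4231 reads) in Control, 80.6 rpm (915 reads) in SB and 677 rpm (6704 reads) in Dox. The level in SB was thus 4.79-fold below Control, and that in Dox 8.41-fold above SB. The log2 ratio of -2.26 (-2.37 to -2.16) for SB over Control was the 6th lowest of the 693 listed miRNAs, and that of 3.07 (2.97 to 3.17) for Dox over SB was the 7th highest. The level in Dox also exceeded that in Control, with a log2 ratio of 0.81 (0.76 to 0.87). Its share of the cluster's reads went from 11.6% in Control to 4.41% in SB and 20.97% in Dox.

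The miR-17 seed family members of the cluster behaved otherwise. miR-20b-5p measured 138 rpm in Control, 129 rpm in SB and 102 rpm in Dox, lowest in Dox. Its log2 ratio was -0.10 (-0.20 to 0.01) for SB over Control and was not called, whereas it fell in Dox over SB, at -0.34 (-0.46 to -0.22), and in Dox over Control, at -0.44 (-0.56 to -0.32). miR-106a-5p measured 70.5 rpm in Control, 70.4 rpm in SB and 61.2 rpm in Dox. Control and SB did not differ beyond counting error for this guide (log2 ratio -0.00, -0.15 to 0.14), and the log2 ratios of Dox over SB and Dox over Control, both -0.20, had intervals below 0 but were under the required size. With the 4 other scalings described further on, both were called lower.

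miR-18b-5p, a guide whose seed AAGGUGC is close to that of the miR-17 family, measured 26.0 rpm in Control, 18.6 rpm in SB and 23.6 rpm in Dox. It fell in SB over Control, with a log2 ratio of -0.49 (-0.75 to -0.22), a call that held under 2 of the 5 scalings. The log2 ratio of Dox over SB was 0.35 (0.07 to 0.62) and was called higher, but it turned to between -0.12 and -0.03 with 3 other scalings, by the reads on listed miRNAs, by TMM (a trimmed mean of ratios) or by the median of ratios.

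The 3p arms of the 5′ hairpins, usually the degraded strands, were rare, with 34 to 144 reads each, so their intervals are wide. miR-106a-3p measured 7.94 rpm in Control, 7.05 in SB and 3.44 in Dox. It was lowest in Dox, with log2 ratios of -1.04 (-1.66 to -0.44) against SB and -1.21 (-1.83 to -0.62) against Control. miR-20b-3p, which has the same seed, measured 10.8 rpm in Control, 7.57 in SB and 14.6 in Dox, the opposite order between SB and Dox. Its log2 ratio was -0.51 (-0.93 to -0.09) for SB over Control, 0.94 (0.55 to 1.34) for Dox over SB and 0.43 (0.07 to 0.80) for Dox over Control, and all 3 were called. Under the 5 scalings the first was called 1 time, the second 5 times and the third 2 times. miR-18b-3p measured 12.9 rpm in Control, 8.10 in SB and 10.2 in Dox, and of its differences only SB over Control, at -0.67 (-1.06 to -0.28), was called.

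By the thresholds of the study, a miRNA was called when the larger of its levels exceeded the smaller by 25% or more. A Z-score of the reads of 2 libraries also had to lie beyond the 95% two-sided limit of a normal distribution. A call therefore compares libraries and not conditions. The study selected only miRNAs that were lower in SB over Control and also higher in Dox over SB. Here the thresholds were applied to each comparison singly and in both directions, Dox over Control included. SB over Control asks which miRNAs were lower once Smad2/3 phosphorylation was inhibited. In it 6 members were lower (30.2% of all listed were) and 0 were higher (15.3% of all listed). Dox over SB asks what followed when the receptor was turned on after the inhibitor, but the Dox cells were also collected 12 hrs later. Receptor, doxycycline itself, time and the end of the SB treatment therefore cannot be told apart. The study also treated the parental J1 cells, which lack Alk4*, but gave no J1 value for a member. In Dox over SB 2 members were lower (17.9% of all listed) and 4 were higher (41.7%). In Dox over Control 3 were lower (19.8%) and 2 were higher (30.6%). With the 4 other scalings 4 or 5 members were lower in SB over Control (21.4% to 25.5% of all listed) and 0 higher (20.8% to 24.1%). In Dox over SB 3 were lower (25.4% to 31% of all listed) and 2 or 3 higher (23.7% to 29.3%). The members lower in Dox over Control were then 6 or 7 of the 9 (24.2% to 27.7% of all listed) and those higher 1 or 2 (20.6% to 24.2%), so the mixed count of that comparison became a mostly lower one. With the authors' rpm, the share of members called higher in Dox over SB was thus close to that of all listed miRNAs. Median log2 ratios of the members were -0.51, 0.33 and -0.20 in the 3 comparisons, beside -0.19, 0.38 and 0.19 over all listed miRNAs. Each library enters 2 of the 3 comparisons, so they are not independent.

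**Figure D2:**
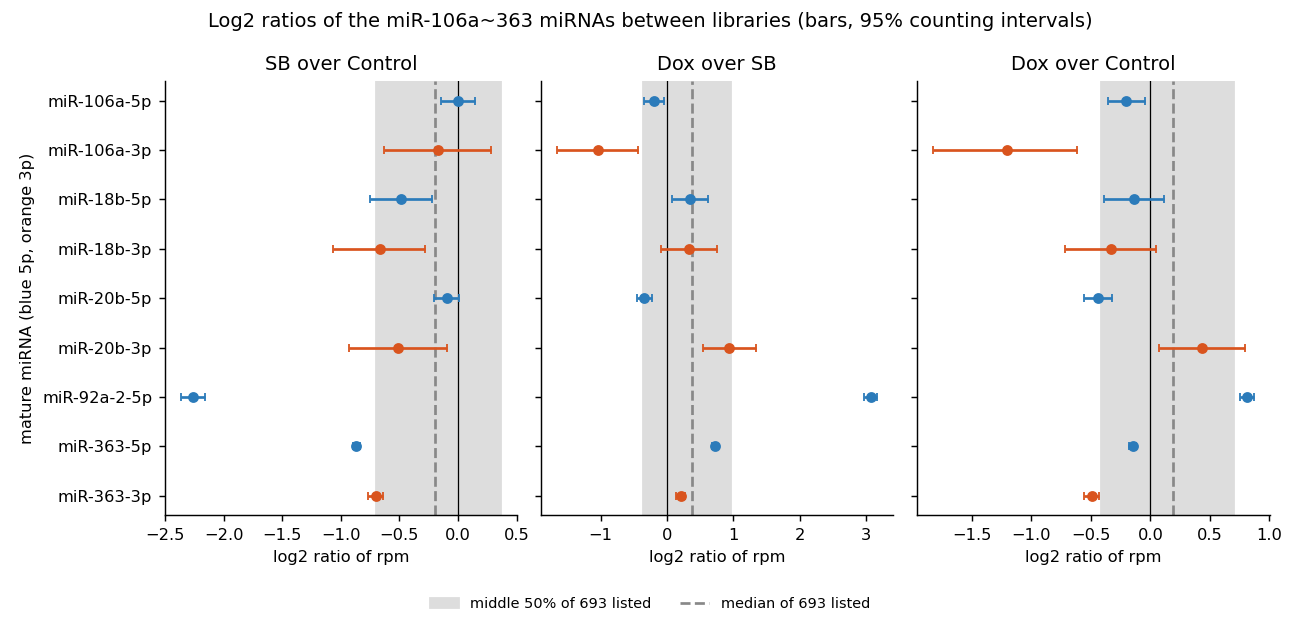
Log2 ratios of rpm of each member for SB over Control, Dox over SB and Dox over Control, with 95% Clopper-Pearson intervals for counting error, beside the median (dashed) and the middle 50% (grey) of the 693 listed miRNAs. miR-92a-2-5p lay at -2.26 and 3.07 in the first 2 panels, and miR-106a-3p at -1.04 in the second.

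Both arms of 4 hairpins were listed, and the ratio of their reads is not changed by a scaling factor of the library. The 5p arm held 89.9% of the miR-106a reads in Control (87.7 to 91.8), 90.9% in SB (88.8 to 92.7) and 94.7% in Dox (92.7 to 96.3). For miR-20b it held 92.7%, 94.4% and 87.5%, so here Dox was the lowest library. For miR-363 it held 83.0%, 81.3% and 86.1%, and for miR-18b 66.9%, 69.6% and 69.9%. The miR-363 hairpin thus gave about 4.87 reads of its 5p arm for each of the 3p arm in Control, although the 3p arm carries the seed of the miR-92 family.

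An arm ratio was called changed when it moved by 25% or more with an interval that left out 0 on the log2 scale. In SB over Control 0 of the 4 hairpins were called, beside 72 of 239 hairpins with both arms listed (30.1%). In Dox over SB 3 of the 4 were called (49.8% of all), and in Dox over Control 3 of the 4 (47.7%). With quantile normalization, which is not a common factor per library, the miR-363 change was 0.27 and 0.070 on the log2 scale and its call ended in both comparisons. The log2 change of the 5p to 3p ratio in Dox over SB was 0.84 (0.24 to 1.43) for miR-106a, 0.51 (0.43 to 0.59) for miR-363 and -1.28 (-1.69 to -0.88) for miR-20b. The first of these hairpins and miR-363 gained in 5p share while miR-20b lost. For miR-18b the log2 change was 0.01 (-0.47 to 0.50), an interval that holds changes of more than the required fold in both directions.

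**Figure D3:**
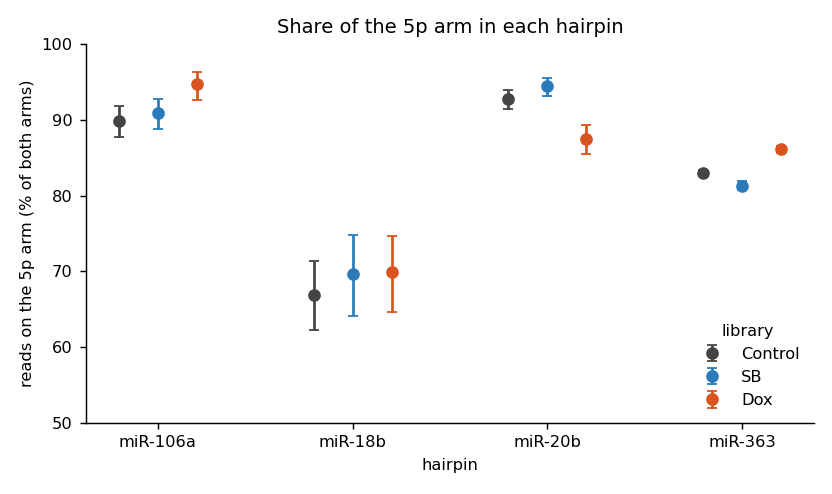
Percent of the reads of each hairpin that were on its 5p arm, in the Control, SB and Dox libraries, with 95% Clopper-Pearson intervals for counting error (axis from 50% to 100%). Dox was the highest library for miR-106a (94.7%) and miR-363 (86.1%) and the lowest for miR-20b (87.5%).

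The guide strands of miR-106a, miR-20b and miR-18b differ by few bases from their counterparts in miR-17~92 on chromosome 14. These counterparts, and that of miR-92a-2-5p, are shown for comparison with the seeds in capitals.
miR-17-5p: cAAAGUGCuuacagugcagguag
miR-20a-5p: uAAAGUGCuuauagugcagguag
miR-18a-5p: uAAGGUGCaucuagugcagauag
miR-92a-1-5p: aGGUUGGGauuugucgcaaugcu
miR-106a-5p and miR-17-5p differed at 1 position, the 10th. miR-20b-5p and miR-20a-5p differed at 2 positions, the first of them base 1. miR-18b-5p and miR-18a-5p also differed at 2, the first at base 18, so a read of 17 bases, the shortest length kept, could match both. miR-92a-2-5p and miR-92a-1-5p differed at 5 of 22 positions from base 5 on, inside the seed.

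In the Control library miR-106a-5p had 0.474 reads for each of miR-17-5p, against 0.515 in SB and 0.340 in Dox. The X chromosome member was the minor one in each library and lowest in Dox, with a log2 change of -0.60 (-0.78 to -0.42) for Dox over SB. miR-20b-5p outnumbered miR-20a-5p, at 1.82 in Control, 1.95 in SB and 1.13 in Dox, with a log2 change of -0.79 (-0.97 to -0.61) for Dox over SB. For miR-18b-5p over miR-18a-5p the ratios were 0.646, 0.508 and 0.411, and the log2 change of Dox over SB, -0.31 (-0.63 to 0.02), did not exceed counting error, whereas that of Dox over Control, -0.65 (-0.96 to -0.35), did. In Dox over Control the changes for the miR-106a and miR-20b pairs were -0.48 (-0.66 to -0.30) and -0.69 (-0.86 to -0.51).

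The pair of miR-92a 5p arms differed from these guides. miR-92a-2-5p had 1.32 reads for each of miR-92a-1-5p in Control, 0.524 in SB and 1.22 in Dox. The SB library was low, with a log2 change of -1.33 (-1.46 to -1.19) for SB over Control and 1.22 (1.09 to 1.35) for Dox over SB. miR-92a-1-5p itself measured 294 rpm in Control, 154 in SB and 555 in Dox, so both arms were lowest in SB and the X chromosome arm by more. Of the 9 listed arms of miR-17~92, 2 were lower (30.2% of all listed) and 0 were higher (15.3%) in SB over Control. In Dox over SB 0 were lower (17.9%) and 7 were higher (41.7%). In Dox over Control 0 were lower (19.8%) and 4 were higher (30.6%). These counts rest on the authors' rpm alone and were not made with the 4 other scalings described further on. Those scalings lowered the share of all listed called higher in Dox over SB to 23.7% to 29.3%.

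**Figure D4:**
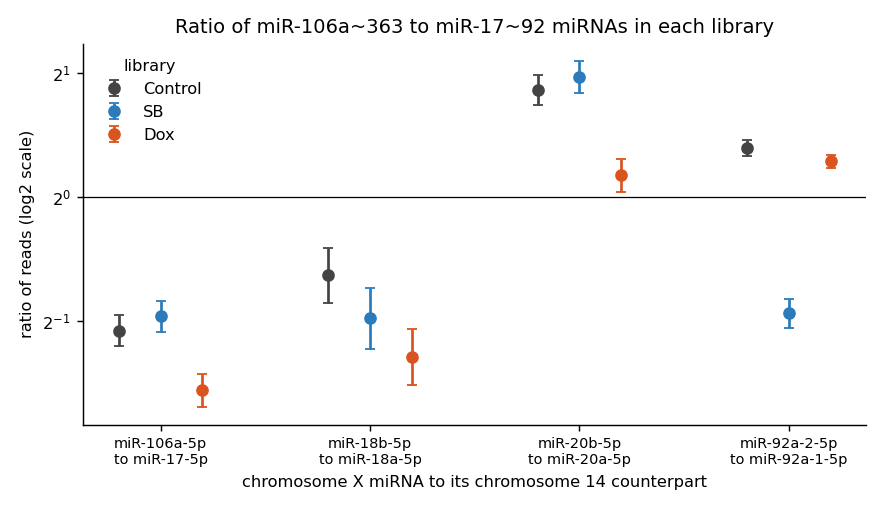
Ratio of reads (log2 axis) of 4 members to their chromosome 14 counterparts in the Control, SB and Dox libraries, with 95% intervals for counting error. The 3 pairs of guide strands were lowest in Dox (0.340, 0.411 and 1.13), and the pair of miR-92a 5p arms was lowest in SB (0.524).

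Among the miRNAs that share a seed, the members were mostly the smaller part. miR-106a-5p and miR-20b-5p together gave 15.5% of the reads with the seed AAAGUGC in Control, 12.8% in SB and 11.5% in Dox, the rest coming from miR-17-5p, miR-20a-5p, miR-106b-5p and miR-93-5p. miR-18b-5p gave 39.3%, 33.7% and 29.1% of the reads shared with miR-18a-5p. miR-363-3p gave 2.42%, 2.08% and 1.52% of the seed AUUGCAC, most of which was on miR-25-3p and miR-92a-3p. In these 3 seed families the members' share was highest in Control and lowest in Dox, although for miR-18b-5p the interval of SB (30.0 to 37.6) overlapped those of Control (35.7 to 42.9) and Dox (26.0 to 32.4). The seed CUGCAGU of the rare 3p arms had another order: miR-106a-3p and miR-20b-3p gave 4.32% of its reads in Control, 6.24% in SB and 3.49% in Dox, the rest being miR-17-3p. Here the intervals of Control (3.76 to 4.94) and Dox (3.00 to 4.03) overlapped. The seeds were compared over the 516 listed miRNAs whose mature sequence was found, 74.5% of the 693.

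The 2 arms that come from chromosomes X and 14 alike are given without assignment. miR-92a-3p, a guide that is among the most abundant miRNAs of these cells, measured 5360 rpm in Control, 3248 in SB and 5573 in Dox, at log2 ratios of -0.72 for SB over Control and 0.78 for Dox over SB. miR-19b-3p measured 119 rpm, 114 rpm and 83.7 rpm, at log2 ratios of -0.06 and -0.45. The first was lowest in SB and the second in Dox, and how much of either came from the X chromosome could not be read from the reads.

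Because the share of reads on listed miRNAs differed between libraries, the ratios were also computed with 4 other scalings, which moved the median log2 ratio of all listed miRNAs by 0.14 to 0.23 for SB over Control, by -0.47 to -0.31 for Dox over SB and by -0.24 to -0.18 for Dox over Control. miR-92a-2-5p was lower in SB over Control, and higher in Dox over SB and in Dox over Control, under all 5 scalings. In Dox over SB its log2 ratio lay between 2.60 and 3.07. miR-20b-3p was higher, and miR-106a-3p and miR-20b-5p were lower, in Dox over SB under all 5. miR-363-5p was lower in SB over Control under all 5, while its log2 ratio for Dox over SB ranged from 0.16 to 0.72 and passed the criteria under 3 of 5. miR-363-3p turned direction in Dox over SB, from 0.21 to as low as -0.26. miR-18b-5p and miR-18b-3p, called higher under 1 and 0 of the 5, also turned in that comparison. In SB over Control the uncalled log2 ratios of miR-106a-5p, miR-106a-3p and miR-20b-5p turned from -0.002, -0.17 and -0.10 to at most 0.23, 0.06 and 0.13. They were above 0 under 4, 3 and 4 of the 5 scalings. In Dox over Control miR-363-3p, miR-20b-5p and miR-106a-3p were lower under all 5 scalings, and miR-363-5p, miR-106a-5p and miR-18b-3p under 4.

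**Figure D5:**
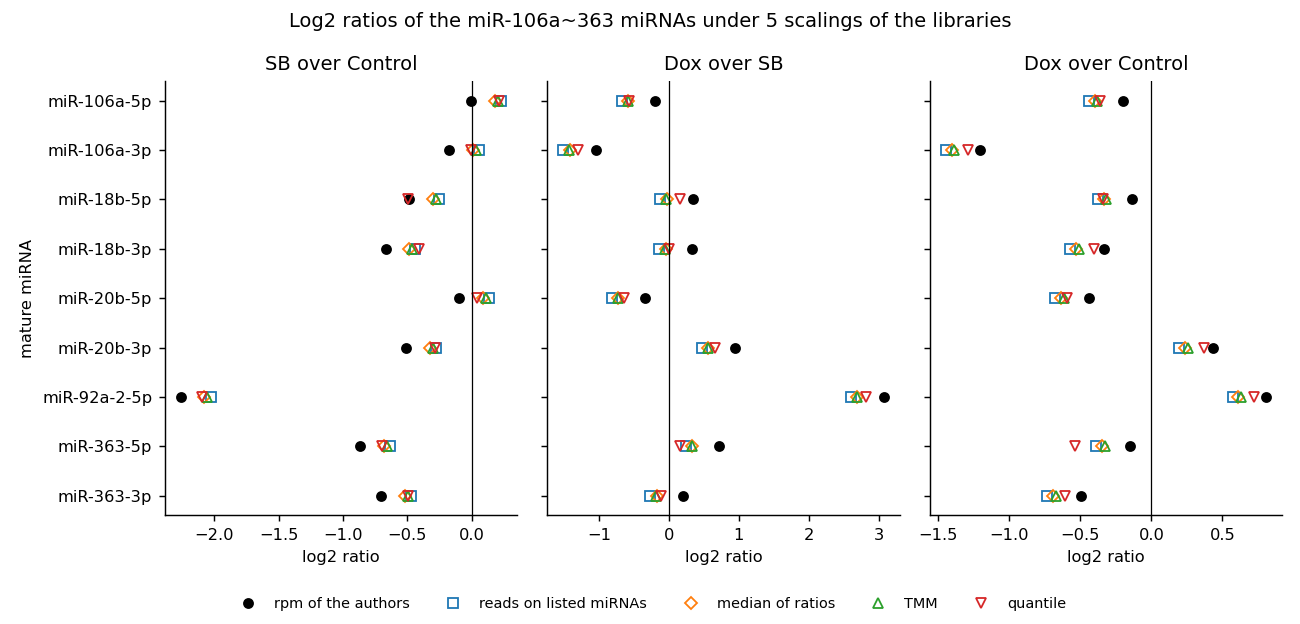
Log2 ratio of each member for the 3 comparisons under the authors' rpm (filled circles) and 4 other scalings of the libraries (open symbols). The shifts were smaller than the distance of miR-92a-2-5p from 0 (2.60 to 3.07 in Dox over SB). They were large enough to turn both miR-18b arms and miR-363-3p in Dox over SB. In SB over Control miR-106a-5p, miR-106a-3p and miR-20b-5p turned from -0.002, -0.17 and -0.10.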

How the data were processed

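Small RNA of TAG1 cells was sequenced from 3 conditions with 1 library each. By the methods of the study, the authors removed adaptors, kept reads longer than 16 bases, aligned them with Bowtie (version 0.12.7 in the submitters' processing notes) to miRBase release 18 without mismatches, assigned reads that matched several miRNAs by length or to each, pooled 2 runs per library and dropped miRNAs with under 10 reads in the 3 libraries together. The deposited values are RPM, the reads of a miRNA divided by the authors by a total of reads of the library and brought to a common scale. The use of strand was not given in the sources used here.

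Every RPM value was a whole multiple of 1 step per library within 0.001 of a read, which gave the reads behind each value and normalizing totals of 10955686 (Control), 11354692 (SB) and 9895513 (Dox), below the sequenced reads that the study states. No count model was fitted, because no condition had a replicate, and no p-value was computed. Ratios were taken of RPM without a pseudocount. Intervals are 95% and cover counting error only: exact Poisson for levels, Clopper-Pearson for shares and ratios of a miRNA between libraries, and a normal interval on the log ratio of reads for arms and paralogues. Calls used a difference of 25% or more and a Z-score beyond the 95% two-sided normal limit, and the script was tested on simulated data. Levels of different miRNAs carry unequal ligation and amplification, which was not corrected.

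Named were the members, both arms shared between chromosomes, the miR-17~92 and miR-106b~25 arms, miRNAs with a seed of a member, the nearest patterns and marker lists. The members and lists were chosen with earlier results of these data known. Alternatives were 4 other scalings (reads on listed miRNAs, TMM trimming 30% by ratio and 5% by level, median of ratios, and quantiles), folds of 1.5 and 2, at least 100 reads in every library, a pseudocount of 1 RPM and the addition of miR-19b-3p and miR-92a-3p to the sum. The pseudocount and quantile normalization were tried on the paralogue ratios after seeing the data. Sequences and positions came from RefSeq and GENCODE M21 for GRCm38, matched by name. Python 3.11.15, numpy 2.4.6, pandas 2.3.3, scipy 1.17.1 and matplotlib 3.10.9 were used.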

Additional observations from a re-analysis of the deposited data

How the results depend on the processing

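No paired analysis was possible because each condition had 1 library, and for the same reason no library could be left out. Of the results that answer a comparison, 60 alternative values kept direction and side of the criteria or stayed within their margin, and the others follow. The summed log2 ratio for SB over Control was -0.64 with reads on listed miRNAs, -0.69 with median of ratios, -0.67 with TMM, -0.70 with quantile normalization and -0.77 with miR-19b-3p and miR-92a-3p added. For Dox over SB it was 0.35, 0.44, 0.44, 0.37 and 0.78 in the same order, and for Dox over Control -0.29, -0.25, -0.23, -0.33 and, turned in direction by the added arms, 0.011. A fold of 2 left 1 of 9 members lower in SB over Control (9.67% of all listed). In Dox over SB, 1 member was lower with a fold of 1.5 (14.4%), a fold of 2 (9.67%) or at least 100 reads (1 of 6 members, 22% of 291 miRNAs). The number higher there was 2 with reads on listed miRNAs (23.7% of all listed), 2 with quantile normalization (29.3%) and 1 with a fold of 2 (22.2%). In Dox over Control the number lower was 7 with reads on listed miRNAs (27.7% of all listed) and 7 with median of ratios (26.1%). It was 6 with TMM (24.7%), 7 with quantile normalization (24.2%) and 1 with a fold of 1.5 (14%) or 2 (8.08%). The number higher was 1 with reads on listed miRNAs (20.6%), median of ratios (21.8%), TMM (22.4%), a fold of 1.5 (22.8%) or at least 100 reads (40.9% of 291). It was 0 with a fold of 2 (13.6%). The arm ratio of miR-363 changed by 0.27 for Dox over SB and 0.070 for Dox over Control with quantile normalization, under the size required, so both calls ended. miR-18b-5p turned in Dox over SB to -0.12 with reads on listed miRNAs, -0.032 with median of ratios and -0.037 with TMM. Fewer members pass a higher fold or read minimum by construction, and the other causes were not tested. Depth limits the 3p arms of miR-106a, miR-18b and miR-20b, with 34 to 144 reads.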

Other observations

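The arms opposite the miR-92 family miRNAs were measured in all 3 paralogous clusters. miR-92a-2-5p of miR-106a-363 had log2 ratios of -2.26 for SB over Control and 3.07 for Dox over SB. miR-92a-1-5p of miR-17~92 had -0.93 and 1.85. miR-25-5p of miR-106b~25 measured 1416 rpm in Control, 706 in SB and 2996 in Dox, at -1.004 and 2.09. These 3 arms were lowest in SB and highest in Dox, and all come from the same libraries. miR-363-5p, also opposite an arm with that seed, was lowest in SB but at 2013 rpm in Dox did not exceed its 2233 rpm in Control. For the arms opposite the miR-17 family guides the log2 ratios of Dox over SB were 1.18 for miR-17-3p, 1.21 for miR-106b-3p, 0.94 for miR-20b-3p, -0.02 for miR-20a-3p (12 to 18 reads a library), -0.85 for miR-93-3p and -1.04 for miR-106a-3p.

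Among 285 listed miRNAs outside the cluster with at least 100 reads in every library, the pair of log2 ratios nearest to that of miR-92a-2-5p was that of miR-23b-5p, at a Euclidean distance of 0.47, with 78.6 rpm in Control, 18.5 in SB and 115 in Dox. miR-485-3p, with 1380, 282 and 1504 rpm, followed at 0.66 and miR-708-3p at 0.93. The nearest to miR-363-5p were miR-540-5p, at 0.029, miR-328-5p, at 0.070, and miR-129-1-3p, at 0.14. The likeness rests on 3 libraries. Of the 61 other listed miRNAs whose sequence matched chromosome X, 15 were lower (30.2% of all listed were) and 5 were higher (15.3%) in SB over Control, and 10 were lower (17.9%) and 17 were higher (41.7%) in Dox over SB, with median log2 ratios of -0.32 and -0.17.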
